A study of Arabidopsis thaliana with 4 samples.

Results

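The serine carboxypeptidase-like (SCPL) genes of Arabidopsis thaliana encode proteins related to the carboxypeptidases that remove amino acids from the end of a protein chain. Members were the genes whose symbol is scpl followed by a number and that were paired alone with a probe set of the array. This gave 29 genes of the 13356 genes paired alone with a probe set, each with 1 probe set. RNA was measured in dissected shoot apices, which hold the shoot meristem and its youngest organs, of wild-type Col-0 plants. The group called SD30 had grown for 30 short days, and the group called SD30_LD7 had grown for 30 short days and then 7 long days, with 2 samples and 2 arrays per group. The groups differ in both day length and age, which cannot be told apart, and no mutation or agent besides day length is recorded. Whether the replicates were grown separately is not recorded, so the tests reflect sample-to-sample spread that may be technical.

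SCPL proteins carry the catalytic triad of serine carboxypeptidases and enter the secretory pathway, which takes them to the vacuole or out of the cell. Some act as peptidases, whereas others have become acyltransferases that use a glucose ester as donor in place of a peptide. The acyltransferase SNG1 makes sinapoylmalate, a sunscreen of the leaf epidermis, and SCPL19, also named SNG2, makes sinapoylcholine in seeds. Another relative, BRS1, is known from its effect on signalling through the brassinosteroid receptor. SNG1, SCPL19 and BRS1 were among 19 of the 51 family genes in the TAIR10.1 gene table that were not analysed here. A further 3 genes shared probe sets with other genes and were no members. The members were grouped by number after the family's phylogeny, a grouping that was not checked, as no sequences were compared here. Numbers 1 to 21 were taken as clade I, which holds the known acyltransferases, 22 to 46 as clade II and 47 to 51 as clade III. By this grouping the members held 4 of 21 genes of clade I, 21 of 25 of clade II and 4 of 5 of clade III. Results therefore bear mainly on clade II.

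Each array gave 1 linear intensity per probe set, scaled by the authors to a common level, with medians from 207 to 220.5 over the 4 arrays. Replicate arrays correlated at r = 0.985 (SD30) and 0.987 (SD30_LD7) across the 15922 probe sets tested, and probe sets are not independent replicates. Markers count as measured where the gene was paired alone with a probe set. The apex markers that were measured, 2 of 7, were above the floor of 23.5 set on low intensities on all arrays. ULT1, a regulator of meristem size, had intensities of 1020 and 986 in SD30 and 1056 and 1163 in SD30_LD7, and CLV3, a stem cell signal, had 72.9, 103.5, 72.6 and 87.9. The 3 leaf markers measured of 6 summed to 11199 and 9035 in SD30 and to 6983 and 6848 in SD30_LD7. Among them PORB, of chlorophyll synthesis, fell, LHCB4.3, an antenna protein gene, rose, and RCA, which encodes Rubisco activase, did not pass at a log2 difference of -0.42. The 1 root marker measured of 3, the ER body glucosidase gene PYK10, fell from 2380 and 2396 to 224 and 276.5. No marker of seed or of stem vascular tissue was analysed here, and the part that the leaf and root markers have in the results below was not tested. RNA integrity, read from the 3'/5' ratio of the GAPDH control, overlapped between the groups (1.78 and 2.04 in SD30, 2.65 and 1.57 in SD30_LD7).

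The design sets apices that saw only short days against apices that also saw long days. Of the 29 members, 16 were bright enough to test, and of these 5 fell, 2 rose and 9 did not pass. Calls were made with limma at a Benjamini-Hochberg adjusted p below 0.05 over all probe sets tested. The falls were those of scpl31, scpl35, scpl46, scpl20 and SCPL49, and the rises those of scpl25 and scpl50. The largest difference, that of scpl31, was a drop from a mean intensity of 527 to 45.2, and the smallest called one, that of scpl50, was a rise from 561 to 762. In RNA of whole apices, fewer cells that express a gene and less RNA per cell cannot be told apart. The 7 called members made up 43.8 percent of those tested, beside 15.0 percent of all probe sets tested and 13.3 percent of those paired with 1 gene. At least 2-fold called differences were found in 3 of the 16 members tested, scpl31, scpl35 and scpl46, beside 5.73 percent of all probe sets tested. The log2 difference of scpl46, -1.02, lay at that limit. It was smaller with quantile normalization (-0.97), median centring (-0.96) and a pseudocount in place of the floor (-0.90). Called falls made up 31.2 percent of the members tested and 8.2 percent of all probe sets tested, and called rises 12.5 and 6.8 percent. The log2 difference had a median of -0.06 and a mean of -0.40 over the 16 members, beside a median of -0.0021 over all probe sets tested. The mean was thus pulled down by few genes, while the middle of the family lay near that of the array. The groups did not overlap in 13 of the 16 members, beside 54.5 percent of all probe sets tested. Without a filter on dim probe sets, 0 of the 29 members passed in limma, beside 152 of 22746 probe sets. The adjusted p of the 7 called genes was then 0.11 to 0.30. In that fit 8 members had an unadjusted p below 0.05, and the share of all probe sets with such a p was not counted. In the fit with the filter 4254 of 15922 probe sets had such a p, beside 9 of the 16 members. No filter with a pseudocount in place of the floor gave 6 calls among the 29, beside 1558 of 22746 probe sets. All 16 members tested had a geometric mean above the filter's limit of 41.4 in each group, so none entered the test through its high group alone. In SD30_LD7, however, scpl31 (43.3) and scpl44 (41.8) were only just above it, each with 1 array below it (32.4 and 37.1).

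**Figure D1:**
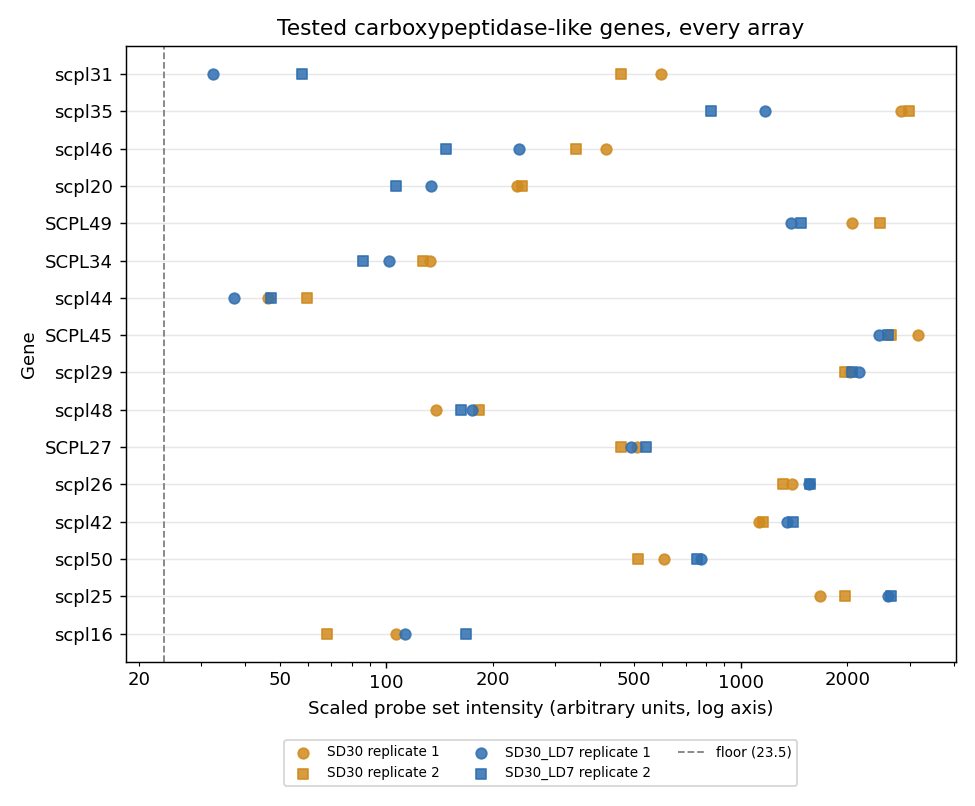
Scaled intensity (log axis) of the 16 members tested, with 1 point per array, SD30 in orange and SD30_LD7 in blue, and the floor at 23.5 as a dashed line. The genes are ordered by their log2 difference: at the top, both SD30_LD7 points of scpl31 (32.4 and 57.9) lie far below its SD30 points (595 and 459), and in the middle rows the points of both groups lie close together.

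Clade II was the best covered. Of its 21 members 11 were tested, of which 3 fell, 1 rose and 7 did not pass. Over all probe sets tested, called falls made up 8.2 percent and called rises 6.8 percent. The gene scpl31 (AT1G11080) had intensities of 595 and 459 in SD30 and of 32.4 and 57.9 in SD30_LD7. Its groups lay far apart, and the shifted values approached the floor, below which intensities were set to one value. The log2 difference was -3.59 ± 0.27 (SE, n = 2 per group, limma adjusted p = 2.5e-06), and the mean was 11.7 times as high in SD30. A floor at the 40th percentile of all values gave scpl31 a log2 difference of -2.36, still called, and with the dimmest 50 percent of probe sets left out the gene was not tested.

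The gene scpl35 (AT5G08260) had intensities of 2836 and 2981 in SD30 and of 1170 and 824 in SD30_LD7. Both shifted values lay well below both short day values and far above the floor. Its log2 difference was -1.57 ± 0.14 (limma adjusted p = 1.2e-05), with a mean 2.92 times as high in SD30. The 95% intervals of scpl31, from -4.19 to -3.00, and of scpl35, from -1.88 to -1.25, did not overlap. These 2 of the 7 called genes were also called in each of the 4 fits that left out 1 array, where scpl31 ranged from -4.01 to -3.17 and scpl35 from -1.82 to -1.31.

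The gene scpl46 (AT2G33530) had intensities of 416 and 343 in SD30 and of 238 and 147 in SD30_LD7. Its groups did not overlap, but the 2 shifted arrays differed from each other by more than the 2 short day arrays did. The log2 difference was -1.02 ± 0.22 (limma adjusted p = 0.0074). The call was lost without SD30 replicate 1 (adjusted p = 0.16), SD30 replicate 2 (0.081) or SD30_LD7 replicate 2 (0.079, with a log2 difference of -0.67), and without an intensity trend (0.071).

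The gene scpl25 (AT3G02110) was the clade II member that rose. Its intensities were 1672 and 1967 in SD30 and 2606 and 2655 in SD30_LD7. The shifted arrays lay close to each other and above both short day arrays. The log2 difference was 0.54 ± 0.11 (limma adjusted p = 0.0059), and the call was lost without SD30 replicate 1 (0.42, adjusted p = 0.11) and without an intensity trend (0.073).

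Among the bright clade II members that did not pass, scpl29 (AT4G30810) had 2033 and 1970 in SD30 and 2159 and 2067 in SD30_LD7. Its log2 difference of 0.08 had a 95% interval from -0.14 to 0.30. SCPL45 (AT1G28110) had 3163 and 2654 against 2464 and 2600 (log2 difference -0.19, interval -0.44 to 0.06). In both genes the groups were apart by less than the distance between the arrays of a group. SCPL27 (AT3G07990) had 510.5 and 458 against 489 and 541, with overlapping groups (0.09, interval -0.19 to 0.37). The gene scpl26 (AT2G35780) had 1395 and 1317 against 1564 and 1572 (0.21, interval -0.01 to 0.43). The gene scpl42 (AT5G42240) had 1128 and 1160 against 1355 and 1403 (0.27, interval 0.05 to 0.49, limma adjusted p = 0.10). In scpl26 and scpl42 both shifted arrays lay above both short day arrays, and the adjusted p missed the threshold. Over these 5 genes the intervals span log2 differences from -0.44 to 0.49, so they do not show equal levels. The dimmer members SCPL34 and scpl44 had log2 differences of -0.48 ± 0.23 and -0.33 ± 0.36 and did not pass (limma adjusted p = 0.22 and 0.63). SCPL34 had 132.8 and 127.3 in SD30 and 101.6 and 85.9 in SD30_LD7, without overlap, and scpl44 had 46.3 and 59.8 against 37.1 and 47.2, with overlap.

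**Figure D2:**
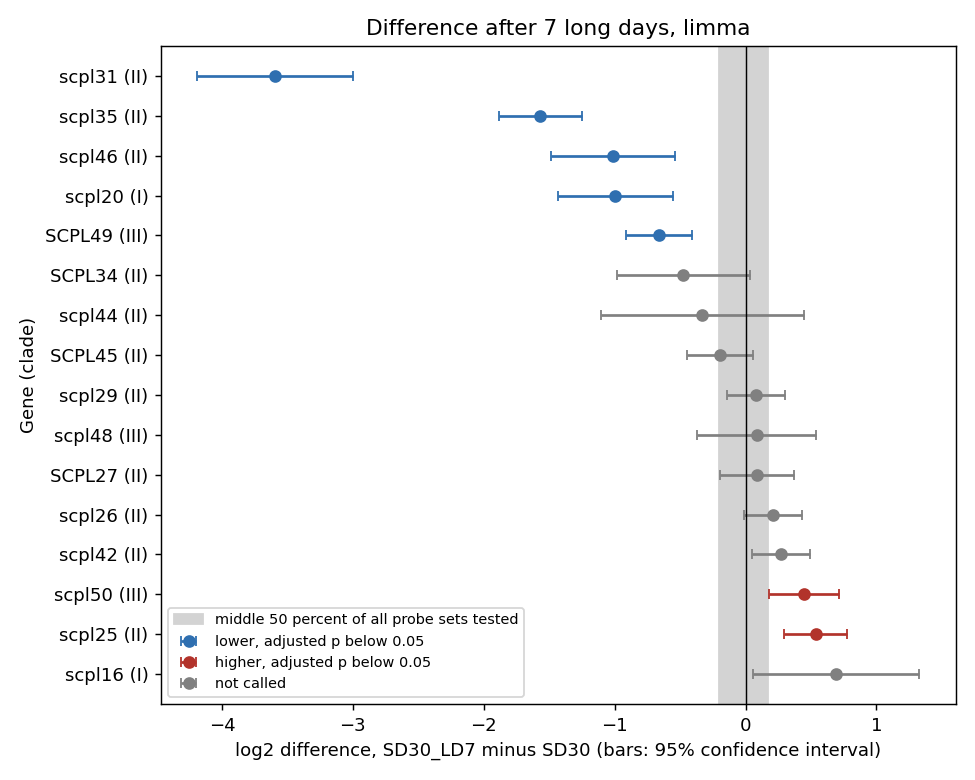
Log2 difference of SD30_LD7 minus SD30 for the 16 members tested, with 95% confidence intervals from limma and the clade in brackets; blue and red mark called falls and rises, and the grey band spans the middle 50 percent of all probe sets tested (-0.20 to 0.17). The fall of scpl31 at -3.59 stands far to the left, the other 4 falls lie between -1.57 and -0.66, and the 2 rises at 0.45 and 0.54 are smaller than any of the called falls.

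Of the 4 members of clade I, 2 were tested, too few to set beside the 15.0 percent of all probe sets called. Of these scpl20 (AT4G12910) fell. It had intensities of 234 and 241.5 in SD30 and of 134 and 106.5 in SD30_LD7. The short day arrays lay close to each other and both shifted arrays lay well below them. The log2 difference was -0.99 ± 0.20 (limma adjusted p = 0.0050), with a mean 1.98 times as high in SD30. Its call was lost without SD30 replicate 1 (adjusted p = 0.069), SD30 replicate 2 (0.079) or SD30_LD7 replicate 2 (0.056), at log2 differences from -1.01 to -0.83, and with the dimmest 50 percent of probe sets left out it was not tested. The other tested gene of this clade, scpl16 (AT3G12220), had 106.8 and 67.8 in SD30 and 112.9 and 168 in SD30_LD7. The groups of scpl16 were apart by less than the distance between arrays of one group, and the log2 difference of 0.69 ± 0.29 did not pass (limma adjusted p = 0.15).

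Clade III includes relatives of yeast carboxypeptidase Y, a protease of the vacuole. Of its 4 members 3 were tested, too few to set beside the 15.0 percent of all probe sets called. Of these SCPL49 fell, scpl50 rose and scpl48 did not pass. SCPL49 (AT3G10410), which the gene table also names CARBOXYPEPTIDASE Y, had intensities of 2068 and 2479 in SD30 and of 1385 and 1481 in SD30_LD7. Both shifted values lay below both short day values, at a log2 difference of -0.66 ± 0.11 (limma adjusted p = 0.0019). The call was lost without SD30 replicate 2 (-0.53, adjusted p = 0.056).

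The gene scpl50 (AT1G15000) had intensities of 610 and 512.5 in SD30 and of 771 and 752.5 in SD30_LD7. Both shifted values lay above both short day values, at a log2 difference of 0.45 ± 0.12 (limma adjusted p = 0.030). This was the call nearest the threshold, and it was lost without any 1 of the 4 arrays (adjusted p from 0.051 to 0.21), with quantile normalization (0.057), with a floor at the 40th percentile (0.064), without an intensity trend (0.12) and, without a filter but with a pseudocount, at 0.070. The 95% intervals of SCPL49 (-0.91 to -0.41) and scpl50 (0.18 to 0.72) lay on opposite sides of 0. The gene scpl48 had 138.3 and 182.5 in SD30 and 174.7 and 162.7 in SD30_LD7. Both shifted values of scpl48 fell between the short day values (log2 difference 0.09 ± 0.21, limma adjusted p = 0.85), and without SD30 replicate 1 the sign turned.

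**Figure D3:**
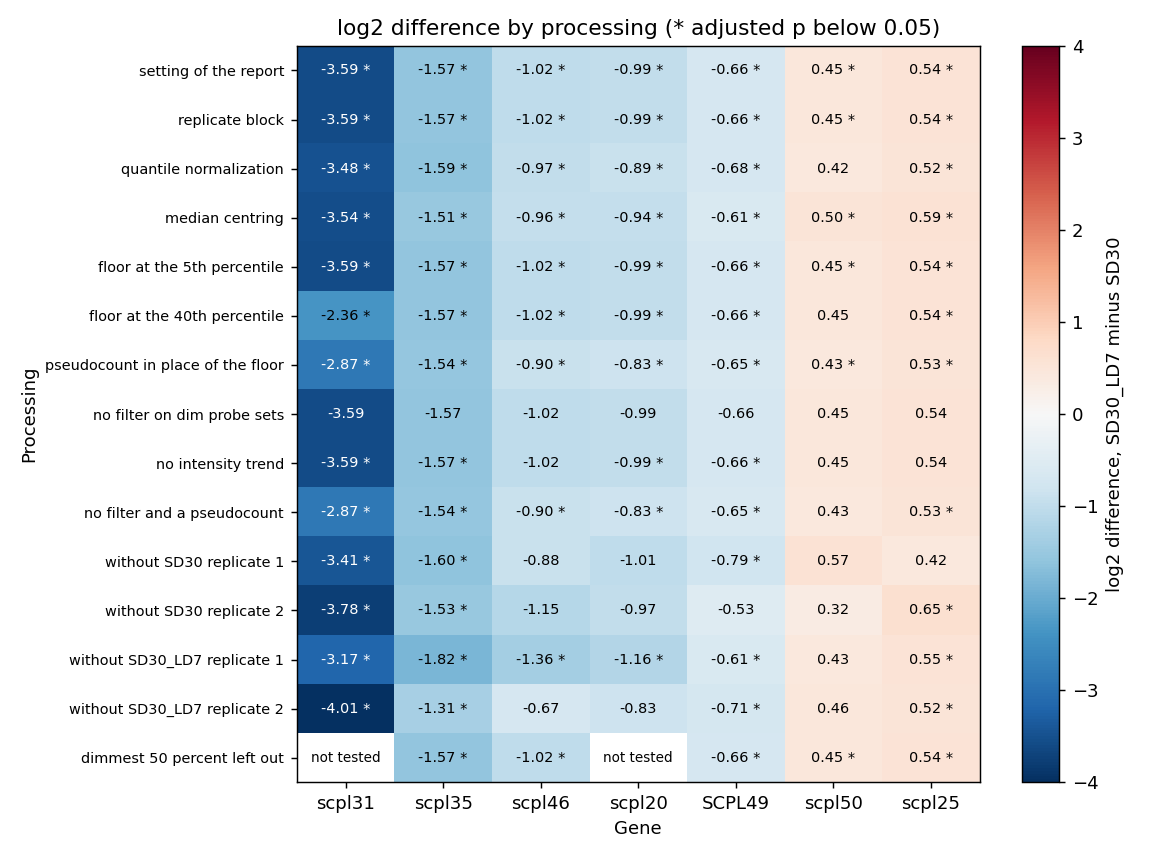
Log2 difference of the 7 called members (columns) under the processing of the report and 14 alternatives (rows), with a colour scale from blue (lower in SD30_LD7) to red (higher); an asterisk marks an adjusted p below 0.05. The columns of scpl31 and scpl35 keep the asterisk in each fit without 1 array, the column of scpl50 in none of these, and the row without a filter on dim probe sets has no asterisk.

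The other 13 members were too dim to test, with intensities from 1.3 to 49.3 over all arrays. They were scpl18 and scpl21 of clade I, scpl47 of clade III and 10 genes of clade II. Both scpl23 and scpl38 lay at or below the floor of 23.5 on all 4 arrays, and 3 genes lay above it on all 4. Among those 3, scpl28 had 42.8 and 23.6 in SD30 and 34.3 and 28.3 in SD30_LD7, and scpl18 had 26.1 and 26.4 against 33.9 and 28.7. The third was SCPL43, with 23.8 and 27.3 against 36.7 and 26.7. These values are close to the floor, where an array cannot tell a low level from none. The gene scpl30 had 41.1 and 41 in SD30, and its SD30_LD7 arrays, at 49.3 and 3.2, lay on either side of these. The gene scpl41, known for a role in membrane lipid metabolism, had 7.6 and 8.4 in SD30 and 10.9 and 31.4 in SD30_LD7, with only 1 array above the floor. When all probe sets were fitted with a pseudocount, none of the 13 passed (limma, lowest adjusted p 0.43) and 0 had an unadjusted p below 0.05. With the floor and no filter, 0 also passed and 0 had such a p.

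**Figure D4:**
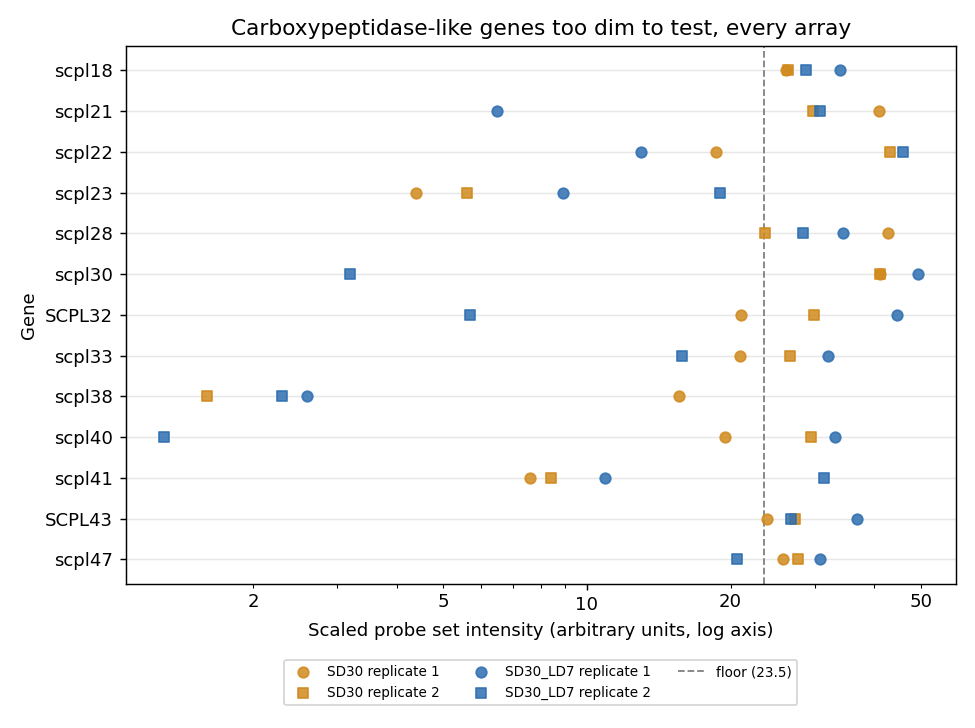
Scaled intensity (log axis) of the 13 members too dim to test, with 1 point per array, SD30 in orange and SD30_LD7 in blue, and the floor at 23.5 as a dashed line. The points lie on both sides of the floor, from 1.3 to 49.3, and arrays of the same group lie far apart in genes such as scpl30 (49.3 and 3.2).

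Several SCPL genes lie side by side in the genome, and 2 such pairs of adjacent genes had both genes measured. The clade II genes scpl28 and scpl26 (AT2G35770 and AT2G35780) are adjacent in the gene table. As given above, scpl28 was near the floor on all arrays, while scpl26 had 1317 to 1572. The clade II genes scpl22 and scpl23 (AT2G24000 and AT2G24010) were both too dim to test, scpl22 with 18.6 and 43.1 in SD30 and 13 and 45.8 in SD30_LD7, and scpl23 with 4.4 and 5.6 against 8.9 and 19. Both scpl22 values of replicate 2 were above the floor and both of replicate 1 below it, so the spread within groups exceeded any difference between them. The genes scpl41 and scpl42 are separated by 2 genes, and there scpl41 was dim and scpl42 bright. The clusters of clade I genes around SNG1 were not analysed here. The shared probe set of scpl36 and scpl37 had intensities of 1 to 1.3, and that of scpl39 and AT3G56540 had 21.9 and 10.7 in SD30 and 1.5 and 0.6 in SD30_LD7, all below the floor.

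Of the 14 genes next to the 7 called members, 10 were measured and 4 were bright enough to test. Of these 4, 1 was called, beside 15.0 percent of all probe sets tested. A count over 4 genes is too small to set beside that share. Each neighbour named below is the only one of its member that was tested, and the dim ones were not tested. The neighbour of scpl31, AT1G11090, had a log2 difference of 0.02, and that of scpl35, AT5G08270, had 0.01, beside -3.59 and -1.57 for the members. The neighbour of scpl25, AT3G02120, had 867 and 844 in SD30 and 1238 and 1057 in SD30_LD7 (log2 difference 0.42, limma adjusted p = 0.027). That call was lost without SD30 replicate 1 (adjusted p = 0.13), SD30 replicate 2 (0.17) or SD30_LD7 replicate 1 (0.23). The neighbour of scpl50, AT1G14990, had 0.27 and did not pass (limma adjusted p = 0.27).

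Genes of the pathways in which relatives of the members act were measured, that is paired alone with a probe set, only in part. Whether the others lie among the 8730 probe sets with no gene named here was not tested. Of 17 genes in a list of sinapate ester synthesis, 5 were measured and tested, of which 2 rose and none fell. Called rises made up 6.8 percent of all probe sets tested, and 5 genes are too few to set beside that share. UGT84A1, a glucosyltransferase that makes glucose esters of hydroxycinnamates, had 2.5 and 25 in SD30 and 128 and 177 in SD30_LD7 (log2 difference 2.64, limma adjusted p = 1.1e-04). UGT84A3, of the same enzyme family, had 31.6 and 45.6 against 140 and 110 (1.71, limma adjusted p = 0.0027). The SD30 means, 13.75 for UGT84A1 and 38.6 for UGT84A3, lay below the filter's limit of 41.4. Both genes thus entered the test through their high SD30_LD7 group alone, which limits what their calls show. With a floor at the 5th percentile UGT84A1 was not tested. In both genes all shifted values lay above all short day values, and both calls were lost when the floor was raised to the 40th percentile (0.57 and 0.28, adjusted p = 0.078 and 0.26). That of UGT84A3 was also lost without SD30_LD7 replicate 1 (0.054). HCT and REF1, of the hydroxycinnamate and sinapate steps, had -0.08 and -0.04, and UGT84A4 had -0.24; these 3 did not pass. In a list of 17 brassinosteroid genes the 1 measured was BAT1, an acyltransferase gene of brassinosteroid inactivation. It rose from 24.8 and 25.1 to 217 and 284 (log2 difference 3.31, limma adjusted p = 5.9e-06). With a floor at the 40th percentile its log2 difference was 1.28 (limma adjusted p = 0.0033). The SD30 values of BAT1 were near the floor of 23.5 and below the filter's limit of 41.4. BAT1 thus also entered the test through its high SD30_LD7 group alone.

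Other proteases gave a point of comparison. Of 11 vacuolar and papain-type proteases, 4 were measured and 3 tested, of which 1 fell. It was beta-VPE, a vacuolar processing enzyme that cleaves vacuolar proteins, with 510 and 613 in SD30 and 203 and 225 in SD30_LD7 (log2 difference -1.39, limma adjusted p = 5.4e-05). The related gamma-VPE had 959.5 and 995.5 against 715 and 823 (-0.35, limma adjusted p = 0.061, not called), and the aspartic protease gene APA1 had -0.17 and did not pass. Of 8 subtilases, a separate family of serine proteases, 4 were tested and ATSBT5.2 fell, from 208 and 186 to 30.6 and 35.8 (-2.57, limma adjusted p = 3.7e-05). With a floor at the 40th percentile its log2 difference was -0.95 (limma adjusted p = 0.0040). Both SD30_LD7 values of ATSBT5.2 lay below the filter's limit of 41.4, so it entered the test through its high SD30 group alone. Called falls made up 8.2 percent of all probe sets tested, and 3 and 4 genes are too few to set beside that share. The median log2 difference was -0.07 over the 4 subtilases and -0.35 over the 3 vacuolar proteases, beside -0.06 over the 16 SCPL genes; whether the families differ was not tested.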

How the data were processed

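The authors deposited a table of linear intensities with 1 value for each of 22746 probe sets on each array, plus 64 controls. Trimmed by 2 percent at each end, every array had a mean of 500.03 to 500.04, so the values had been scaled before deposit. The software behind these values was not given in the sources used here. By the array's annotation table, 13513 probe sets belong to 1 gene, 503 to several genes and 8730 to none named here. Symbols and loci come from the TAIR10.1 gene table.

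Intensities below the 20th percentile (23.5) were set to it, log2 values were taken, and the dimmest 30 percent by mean log2 value, 6824 probe sets, were dropped, leaving 15922. The comparison used limma 3.58.1 under R 4.3.3, with lmFit and eBayes, an intensity trend, two-sided tests, and 2 residual plus 9.90 prior degrees of freedom. A Benjamini-Hochberg adjusted p below 0.05, taken over every probe set in the fit, counted as a call. Intervals are the model's 95% intervals. Fold changes near the floor are understated. Figures were drawn with matplotlib 3.10.9. The number of arrays limits precision.

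The members, the gene lists and the clades by number were chosen with earlier results of these data known. Genes named were all members, list genes past the threshold, and further list genes and neighbours chosen after their values were seen. On simulated data of 2 against 2 arrays (15922 probe sets, 200 changed, 20 simulations) the procedure found 75.7 percent of the changes of 2-fold and 96.1 percent of those of 4-fold. The sign was wrong in 0 of them, with on average 8.05 false calls of 179.8. The simulated noise was drawn from the variance model fitted to these data, and the 200 changes were fewer than the 2388 calls made here. The rates therefore hold only as far as that model does, which the simulation could not test. The deviations of same-numbered replicates had a correlation of 0.047, which with 2 replicates per group cannot show whether the replicates were paired. Alternatives were quantile normalization, centring on the median, the replicate block, fits without 1 array, other floors, a pseudocount of 32, other filters, no intensity trend, other thresholds, and other rules for the probe set of a gene. Taking the mean over the probe sets of a gene could not change a member's value, as each member had 1 probe set.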

Additional observations from a re-analysis of the deposited data

How the results depend on the processing

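The fit without a filter but with a pseudocount was chosen after seeing the data. Of the 16 SCPL genes tested, 7 were called. Without a filter on dim probe sets, 0 of 29 were called, and 152 of all probe sets were, against 2388. The prior degrees of freedom then fell to 0.716 from 9.90. Of the 29, 8 had an unadjusted p below 0.05, and the share of all probe sets with such a p in that fit was not counted. Without an intensity trend 4 SCPL genes and 1532 of all probe sets were called, with a 2-fold minimum 3 and 912, and without 1 array 3 to 6 and 1058 to 1494, where a group left with 1 array is taken to vary as the other does. A threshold of 0.01 left 1297 of all probe sets, and no filter with a pseudocount 1558. Of the sinapate and brassinosteroid genes 3 were called, against 1 after raising the floor to the 40th percentile, 0 with no filter (3 with an unadjusted p below 0.05) and 0 with the dimmest 50 percent left out (2 tested, 0 with such a p). Of the other proteases 2 were called, against 0 with no filter (3 with an unadjusted p below 0.05) and 1 with the dimmest 50 percent left out. Each of the 7 called SCPL genes kept its direction in each alternative in which it was tested. The sign of scpl48, which was not called, turned without SD30 replicate 1 (-0.11, or up to 0.29 without another array). With the replicate number as a block 7 SCPL genes, 3 other proteases, 3 of the sinapate and brassinosteroid genes and 2741 of all probe sets were called. With median centring 1329 probe sets were higher and 1066 lower (55.5 percent higher), against 1083 and 1305 (45.4 percent), and 5 SCPL genes still fell and 2 rose. Signal near the floor limits what can be said of the 13 dim members.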
